A study of Mus musculus with 24 samples.

Results

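The H2 genes, the mouse major histocompatibility complex (MHC) family, were examined for trimethylation of histone H3 at lysine 4 (H3K4m3), a mark of the start regions of genes that are transcribed or poised for transcription. Members were all genes whose symbol begins with H2- in the deposited table. There were 39 among 27179 genes, and all 39 passed the filter on low values, a mean log2 value of at least 0, that left 25680 genes for testing. H3K4m3 was measured by chromatin immunoprecipitation and sequencing of brain, heart, kidney and liver, each as frozen tissue and as formalin-fixed, paraffin-embedded (FFPE) tissue. The values stood in 8 columns, 1 for each organ and preservation type, and each column is called a library here. Frozen pieces were taken as tissue cores, crosslinked with formaldehyde, quenched with glycine and sheared with the PIXUL sonicator. FFPE pieces were freed of paraffin, rehydrated through ethanol, heated to release chromatin and sheared with the same instrument. The labels used here name no treatment or genetic change, give no strain, age or sex, and do not say which libraries came from separate animals. The p-values therefore reflect only how far these libraries differ, which may be technical. Bulk tissue also mixes cell types, so fewer cells of a type and less H3K4m3 per cell cannot be told apart.

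MHC class I molecules sit on nearly all nucleated cells and show peptides from inside the cell to CD8 T cells and natural killer cells. They are built from a heavy chain and the light chain B2m, and are loaded with peptides made by the proteasome and carried by the Tap transporter. Class II molecules are found mainly on B cells, dendritic cells and macrophages and show peptides from taken-up material to CD4 T cells. Both kinds of gene are switched on by interferon, and healthy brain is known for low class I on neurons.

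By class, the members were 2 classical class I heavy chains (H2-K1 and H2-D1), 6 genes of the Q region, 7 of the T region and 12 of the M region, all class I as well. To these came the class I copy H2-K2, 5 classical class II chains, 5 nonclassical class II chains, and H2-Ke6, an enzyme of steroid and fatty acid metabolism that shares only the prefix and the locus. RefSeq placed 38 of the 39 on chromosome 17 of GRCm38.p6, the assembly that mm10 stands for, between positions 33974659 and 37483554, a stretch of 3.51 Mb. H2-T9 had no entry there. RefSeq lists H2-K2, H2-Ea, H2-Bl and H2-T10 as transcribed pseudogenes.

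Start-region sequences were available from RefSeq (GRCm38.p6) for 31 of the 39 members, as windows from 250 bases before to 50 bases after the start. The 250 bases before the start are given for 8 members: H2-K1, H2-D1, H2-Q7, H2-Q10, H2-T23 and H2-M3, which differed between organs, and H2-Eb1 and H2-M10.1, which did not pass for any organ and stand for class II and the M10 genes. Capitals mark matches, on either strand, to CCAAT (Y box), TGACG (core of the X2 box), AGCAAC (core of the X1 box), GGGATTCCC (kappa B site) and the interferon-response element in 2 forms: the long form, GAAA, any 2 bases and GAAA, and the short form GAANNGAAA, which was added to the search after the others. A match is a description of letters and not of a bound factor.
H2-K1, chr17:34000348-34000597, minus strand: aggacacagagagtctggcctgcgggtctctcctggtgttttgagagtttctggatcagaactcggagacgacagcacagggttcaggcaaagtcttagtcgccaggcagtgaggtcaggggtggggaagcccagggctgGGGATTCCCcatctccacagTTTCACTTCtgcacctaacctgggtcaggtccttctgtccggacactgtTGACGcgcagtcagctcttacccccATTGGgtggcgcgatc
H2-D1, chr17:35262844-35263093, plus strand: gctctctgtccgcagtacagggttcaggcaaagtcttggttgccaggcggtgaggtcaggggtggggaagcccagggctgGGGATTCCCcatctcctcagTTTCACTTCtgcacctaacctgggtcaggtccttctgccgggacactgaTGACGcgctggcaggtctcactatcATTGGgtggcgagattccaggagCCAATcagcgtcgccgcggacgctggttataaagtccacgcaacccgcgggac
H2-Q7, chr17:35438905-35439154, plus strand: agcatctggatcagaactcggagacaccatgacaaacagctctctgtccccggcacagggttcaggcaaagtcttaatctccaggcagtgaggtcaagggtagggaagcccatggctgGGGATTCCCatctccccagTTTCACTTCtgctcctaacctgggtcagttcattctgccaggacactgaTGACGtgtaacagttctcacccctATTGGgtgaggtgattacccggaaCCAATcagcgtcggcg
H2-Q10, chr17:35469839-35470088, plus strand: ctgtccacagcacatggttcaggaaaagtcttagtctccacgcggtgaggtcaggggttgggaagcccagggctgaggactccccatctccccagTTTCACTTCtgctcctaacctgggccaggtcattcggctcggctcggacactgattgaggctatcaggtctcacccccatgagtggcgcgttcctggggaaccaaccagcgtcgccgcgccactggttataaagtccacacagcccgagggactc
H2-T23, chr17:36032702-36032951, minus strand: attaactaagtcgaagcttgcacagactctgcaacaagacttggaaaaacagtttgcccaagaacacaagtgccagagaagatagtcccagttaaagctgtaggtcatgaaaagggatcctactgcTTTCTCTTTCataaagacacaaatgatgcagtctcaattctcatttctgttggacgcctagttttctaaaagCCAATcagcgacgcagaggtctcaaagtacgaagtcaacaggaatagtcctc
H2-M3, chr17:37269984-37270233, plus strand: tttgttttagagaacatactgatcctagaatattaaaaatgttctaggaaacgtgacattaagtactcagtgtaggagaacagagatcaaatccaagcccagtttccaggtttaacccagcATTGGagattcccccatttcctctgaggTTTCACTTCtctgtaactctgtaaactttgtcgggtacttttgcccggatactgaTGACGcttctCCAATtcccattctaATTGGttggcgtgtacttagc
H2-Eb1, chr17:34305617-34305866, plus strand: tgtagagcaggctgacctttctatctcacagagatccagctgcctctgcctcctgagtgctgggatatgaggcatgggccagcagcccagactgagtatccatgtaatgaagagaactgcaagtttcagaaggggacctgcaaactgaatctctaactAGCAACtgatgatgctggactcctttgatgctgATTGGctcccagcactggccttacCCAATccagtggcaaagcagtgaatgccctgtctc
H2-M10.1, chr17:36326151-36326400, minus strand: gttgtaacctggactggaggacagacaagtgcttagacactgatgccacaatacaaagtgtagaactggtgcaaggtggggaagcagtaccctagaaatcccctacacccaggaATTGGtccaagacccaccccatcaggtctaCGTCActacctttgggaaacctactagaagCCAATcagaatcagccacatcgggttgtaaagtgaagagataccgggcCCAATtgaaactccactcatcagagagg

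Among the 31 members with a window, 28 held CCAAT, against 37.4% of all 32851 windows. GGGATTCCC stood in 4 members, H2-K1, H2-D1, H2-Q6 and H2-Q7, against 0.353% of all windows. GAANNGAAA stood in 8 members, namely both classical genes, H2-Q4, H2-Q6, H2-Q7, H2-Q10, H2-M3 and H2-M2, against 7.52% of all windows. The long form of that element stood in H2-T22 and H2-T23, against 3.44%. Its 2 forms differ in spacing, and members with the long form did not hold the short one. TGACG was found in 12 members (20.8% of all windows) and AGCAAC in 6 (14.8%). H2-Q10 held GAANNGAAA but neither CCAAT nor GGGATTCCC, although its window was 82.2% identical to that of H2-D1 over the alignment, gaps included. The members are a family of related sequences, so shared letters are not independent observations. H2-M10.3 and H2-M10.5 were 90.3% identical, and the longest run shared by H2-Q6 and H2-Q7 was 67 bases.

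The recovered reads per library numbered between 1792394 (frozen heart) and 5275085 (FFPE kidney), with FFPE deeper than frozen in each organ. Levels are given as CPM, the deposited log2 value without the log, on the authors' scaled library size. Where no read is seen, up to 3 reads remain possible, or 0.537 CPM in FFPE kidney and 1.69 CPM in frozen heart as the extremes, for counting error only. The organs carried their labels' identity: 5 of 5 brain, 4 of 5 heart, 5 of 5 kidney and 5 of 5 liver marker genes were higher in their own organ. Which part of a gene was counted is not given in the sources at hand, so levels are compared between libraries and not between genes. The summed level of the 39 members was 642 CPM in frozen and 638 CPM in FFPE brain. It was 1197 and 1158 CPM in heart, 1198 and 979.9 CPM in kidney, and 2088 and 1293 CPM in liver. Both brain libraries were thus below all 6 others, and frozen liver was above the other 7.

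**Figure D1:**
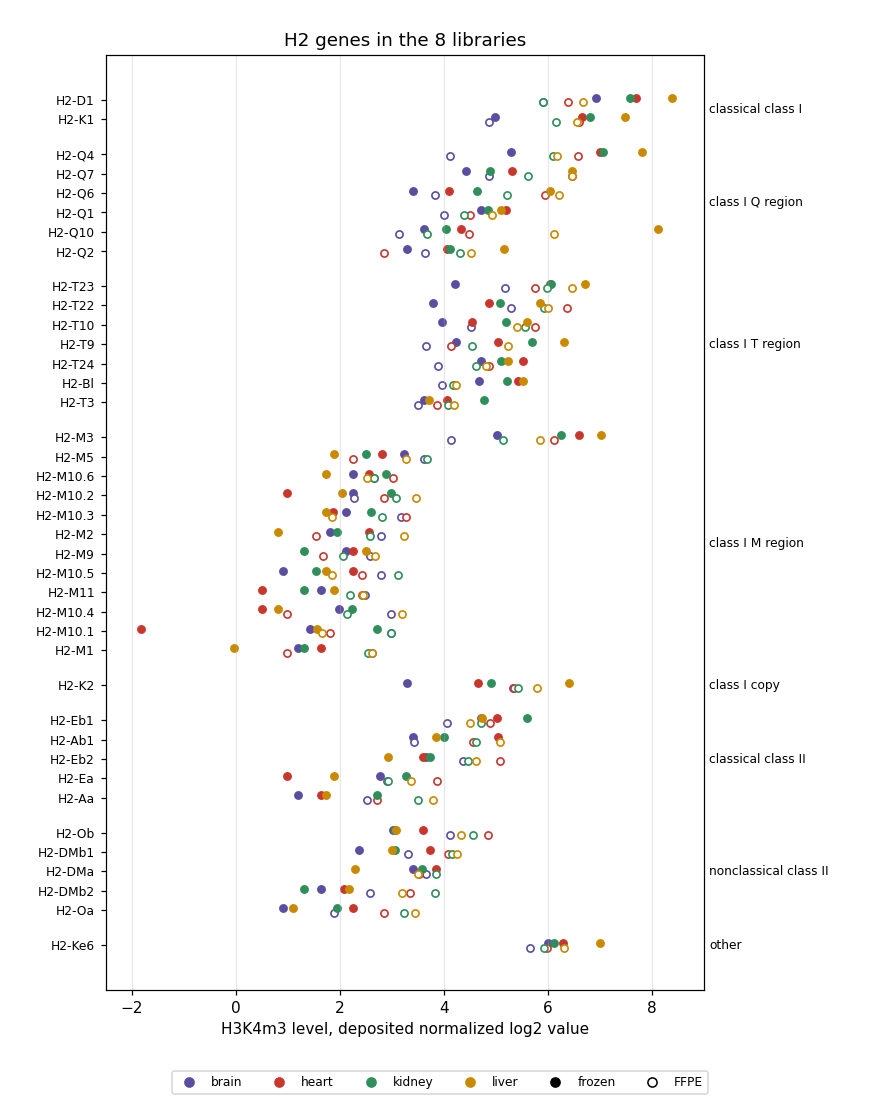
H3K4m3 level of each of the 39 H2 genes, as the deposited normalized log2 value, with 1 point per library, coloured by organ, filled for frozen and open for FFPE tissue. In many class I genes the brain points lie lowest and the liver points highest, while in most class II genes the open points lie to the right of the filled ones.

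Differences between organs were tested by setting 1 organ against the mean of the remaining 3, with preservation in the same linear model (limma), and a gene that passes has a Benjamini-Hochberg adjusted p, over all tested genes, under 0.05. In a test for any difference among the 4 organs, 11 of the 39 members passed, against 14.4% of all tested genes. All 11 were class I genes: H2-K1, H2-D1, H2-Q4, H2-Q6, H2-Q7, H2-Q10, H2-T9, H2-T10, H2-T22, H2-T23 and H2-M3. No class II member passed that test, and at the unadjusted level 1 of the 10 was under 0.05, H2-Ab1.

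Brain carried less H3K4m3 than the other organs at 11 of the 28 class I genes. Of the 39 members 11 passed, all of them lower in brain, against 10.1% of all genes passing and 4.53% passing as lower. These were the same 11 class I genes as in the test for any difference. For 10 members both brain libraries lay below all 6 others, against 4.64% of all genes. They were H2-K1, H2-Q4, H2-Q6, H2-Q7, H2-Q10, H2-T10, H2-T23 and H2-M3, and also H2-T3 and H2-Ab1, which did not pass. The median log2 difference over the 39 members was -0.55, and it was -0.01 over all tested genes.

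The classical heavy chains H2-K1 and H2-D1 present peptides to CD8 T cells. H2-K1 had 31.8 and 29.1 CPM in frozen and FFPE brain, 100.2 and 96.9 in heart, 112 and 71.6 in kidney, and 178 and 93.9 in liver. Frozen and FFPE brain were close to each other and below every other library. The brain level was 3.43-fold lower than the mean of the other organs (log2 difference -1.78 ± 0.20 (SE), adjusted p = 6.79e-05). H2-D1 had 121 and 59.6 CPM in frozen and FFPE brain, 208 and 83.4 in heart, 191 and 60.02 in kidney, and 336 and 102 in liver. Here preservation split the libraries more than organ did, and frozen brain was above all 4 FFPE libraries. H2-D1 was still 1.62-fold lower in brain (log2 difference -0.70 ± 0.18 (SE), adjusted p = 0.0195), with -0.98 among frozen and -0.42 among FFPE libraries.

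In the Q region, 4 of 6 genes were lower in brain, and the median log2 difference of the region was -1.48. H2-Q4 had 39.3 and 17.4 CPM in frozen and FFPE brain, 129 and 95.1 in heart, 133 and 68.4 in kidney, and 224 and 72.5 in liver. The brain libraries were below all others, and H2-Q4 had the largest brain difference of any member, 4.23-fold (log2 -2.08 ± 0.21 (SE), adjusted p = 3.54e-05). H2-Q6 and H2-Q7 encode the Qa-2 type of molecule and are near copies, so reads may be split between them. H2-Q6 had 10.6 and 14.3 CPM in frozen and FFPE brain, 17.2 and 61.4 in heart, 25.0 and 37.3 in kidney, and 65.7 and 73.9 in liver. H2-Q7 had 21.4 and 29.3 CPM in frozen and FFPE brain, 39.8 and 88.0 in heart, 29.5 and 49.1 in kidney, and 88.1 and 88.8 in liver. In both genes the brain libraries were lowest and FFPE heart was far above frozen heart. The log2 brain difference was -1.74 ± 0.30 (SE), adjusted p = 0.0015 for H2-Q6 and -1.22 ± 0.23 (SE), adjusted p = 0.00267 for H2-Q7, and with their reads added together it was -1.42 ± 0.22 (SE), adjusted p = 0.000725. H2-Q1 (-0.46) and H2-Q2 (-0.71) did not pass.

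In the T region, 4 of 7 genes were lower in brain, with a median of -1.11. H2-T23 encodes Qa-1, the mouse counterpart of human HLA-E, which shows leader peptides of other class I chains to natural killer cells. H2-T23 had 18.5 and 35.9 CPM in frozen and FFPE brain, 65.8 and 54.1 in heart, 66.5 and 63.1 in kidney, and 105 and 88.3 in liver. Both brain libraries were lowest, with frozen brain below FFPE brain. The log2 brain difference was -1.48 ± 0.24 (SE), adjusted p = 0.000943, and it was -2.06 among frozen against -0.90 among FFPE libraries. H2-T22 encodes a ligand of gamma-delta T cells, and H2-T10 is its close relative. H2-T22 had 13.9 and 39.0 CPM in frozen and FFPE brain, 29.1 and 82.2 in heart, 33.6 and 60.7 in kidney, and 57.5 and 63.8 in liver. H2-T10 had 15.6 and 22.9 CPM in frozen and FFPE brain, 23.4 and 53.7 in heart, 36.8 and 47.1 in kidney, and 48.5 and 42.4 in liver. Brain was lowest within each preservation type in both genes, but FFPE brain was above frozen heart and kidney for H2-T22. Their log2 brain differences were -1.13 ± 0.26 (SE), adjusted p = 0.0105 and -1.11 ± 0.26 (SE), adjusted p = 0.0134, and -1.11 ± 0.23 (SE), adjusted p = 0.00545, with reads added together. H2-T24 (-0.72), H2-T3 (-0.56), the thymus leukemia antigen, and the pseudogene H2-Bl (-0.48) did not pass. H2-T9 had 18.9 and 12.6 CPM in frozen and FFPE brain, 33.0 and 17.6 in heart, 52.1 and 23.2 in kidney, and 79.1 and 37.7 in liver. Frozen brain was above FFPE heart, and the log2 brain difference was -1.21 ± 0.24 (SE), adjusted p = 0.00388.

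Only 1 of the 12 M-region genes passed in brain. This was H2-M3, which shows peptides that begin with N-formyl methionine, as made by bacteria and mitochondria. H2-M3 had 32.6 and 17.5 CPM in frozen and FFPE brain, 97.4 and 69.7 in heart, 76.5 and 35.0 in kidney, and 129 and 57.3 in liver. Again brain was below all other libraries, and the level was 2.99-fold lower (log2 difference -1.58 ± 0.20 (SE), adjusted p = 0.000156). The other 11 M-region genes include H2-M1, H2-M9, H2-M11 and the M10 genes, which are known from vomeronasal sensory neurons. They were low throughout, between 0.282 and 12.8 CPM, and 0 of the 11 had an unadjusted p under 0.05 for brain in limma. H2-M10.1 in frozen heart was the single value in the family with 0 reads.

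**Figure D2:**
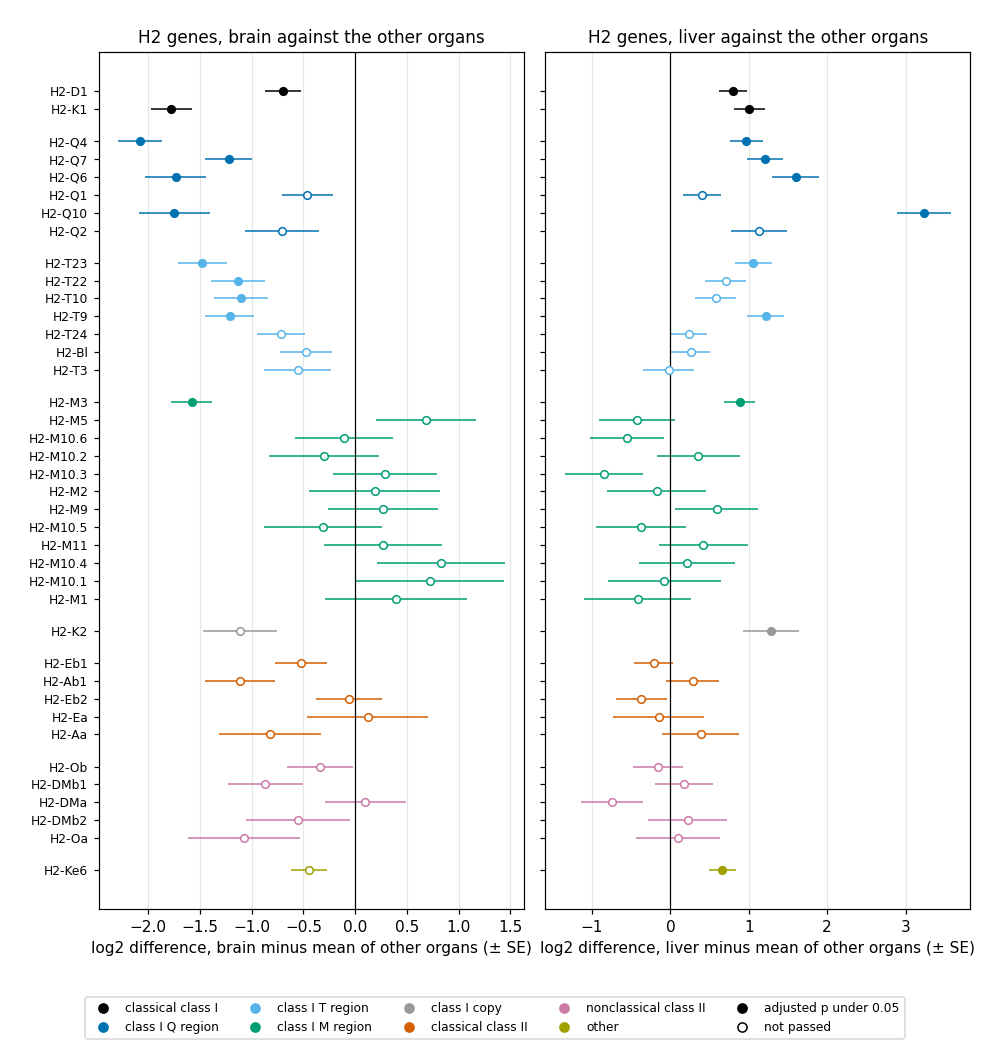
Log2 difference of each H2 gene between brain (left) or liver (right) and the mean of the other organs, with bars of 1 SE, coloured by class and filled where the adjusted p was under 0.05. The 11 filled points of the brain panel are class I genes to the left of 0, and in the liver panel H2-Q10 lies farthest to the right at 3.24.

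The 11 brain calls were seen in both preservation types: the log2 difference ran from -2.06 (H2-T23) to -0.98 (H2-D1) among frozen libraries and from -2.17 (H2-Q4) to -0.42 (H2-D1) among FFPE libraries. Without the frozen brain library 4 members passed, H2-Q4, H2-K1, H2-M3 and H2-Q6. With a single prior variance for genes of all levels, 1 member passed, H2-Q4. Without both liver libraries, a setting added after seeing the data, 11 members passed again and 9 were shared, with H2-Q10 (-0.76, adjusted p = 0.155) and H2-D1 lost and H2-Ab1 and H2-T24 gained.

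Most endothelial markers were lower in brain, and in liver most had a negative difference. In liver 10 of the 12 had a negative log2 difference, with a median of -0.38, and 0 passed in limma. In brain 8 of the 12 passed as lower (66.7%, against 4.53% of all genes), among them Robo4 (-1.78), Egfl7 (-1.77) and Pecam1 (-1.16). The summed level of the 12 was 231 to 298 CPM in brain and 338 to 975 CPM elsewhere. Leukocyte markers also lay mostly below 0 in brain: of 14 such genes 12 had a negative log2 difference, with a median of -0.46. Among frozen libraries 13 of the 14 were below 0, and among FFPE libraries 11. At single genes 1 of them was higher in brain, Coro1a (1.66), and 1 was lower, Fcer1g (-1.34). That is 7.14% each way, near the 5.53% higher and 4.53% lower of all genes. Their summed level was 233 CPM in frozen brain and 218 to 235 CPM in the other frozen libraries. It was 331 CPM in FFPE brain and 324 to 386 CPM in the other FFPE libraries. None of these marker genes was at 0 reads in any library, and the part of cell composition in the class I differences was not tested.

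Liver carried more H3K4m3 at 10 of the 28 class I genes and at H2-Ke6. Of the 39 members 11 passed, all higher, against 9.96% of all genes passing and 5.13% passing as higher. They were H2-K1, H2-D1, H2-Q4, H2-Q6, H2-Q7, H2-Q10, H2-T9, H2-T23, H2-M3, the copy H2-K2 and H2-Ke6. For 7 members both liver libraries lay above all 6 others, against 5.12% of all genes, and for H2-M10.3 both lay below, against 4.44%. The median log2 difference over the members was 0.29, and it was -0.01 over all tested genes.

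H2-Q10 had the largest liver difference of the members. It encodes a class I heavy chain that is secreted, chiefly by the liver, and circulates in blood. H2-Q10 had 12.3 and 8.82 CPM in frozen and FFPE brain, 20.0 and 22.5 in heart, 16.5 and 12.8 in kidney, and 278 and 69.4 in liver. Both liver libraries were above all others, and frozen liver was about 4 times FFPE liver. The liver level was 9.42-fold higher than the mean of the other organs (log2 difference 3.24 ± 0.34 (SE), adjusted p = 0.000197), with 4.12 among frozen and 2.35 among FFPE libraries. These values rested on 707 reads in frozen and 297 in FFPE liver. H2-Q10 was the 1 member that passed without the frozen liver library, and without both brain libraries it was still 7.91-fold higher (log2 2.98, adjusted p = 0.000949). Its brain difference of -1.75 is measured against a mean that liver raises. Its promoter shown above had no match to CCAAT or GGGATTCCC. H2-T3 and H2-M5 lacked CCAAT too, and only 4 of the 31 members with a window held GGGATTCCC. Any bearing of these letters on the liver difference was not tested.

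The other liver calls were smaller. H2-Q6 (log2 difference 1.60 ± 0.30 (SE), adjusted p = 0.00378) and H2-Q7 (1.21 ± 0.23 (SE), adjusted p = 0.00401) had both liver libraries above all others, and with reads added together the log2 difference was 1.36, adjusted p = 0.00169. H2-T9 was higher by 1.22 ± 0.24 (SE), adjusted p = 0.00487, H2-T23 by 1.06, H2-K1 by 1.01, H2-Q4 by 0.97, H2-M3 by 0.88 and H2-D1 by 0.80 on the log2 scale. For H2-K1, H2-Q4 and H2-M3 the FFPE liver library was below the FFPE heart library, so the groups overlapped. The groups also overlapped for H2-T9 and H2-D1, where FFPE liver was below frozen kidney. The contrast includes the low brain in its mean. Without both brain libraries, 3 liver calls were left: H2-Q10, H2-Q6 (1.14) and H2-T9 (0.92), while H2-K1 came to 0.46 with an adjusted p of 0.277 and H2-Q4 to 0.31 with an adjusted p of 0.566. That setting was added after seeing the data.

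H2-K2 had 9.77 and 40.3 CPM in frozen and FFPE brain, 25.1 and 40.6 in heart, 30.0 and 43.2 in kidney, and 85.3 and 55.4 in liver. Liver was highest in both preservation types, and frozen brain stood apart from FFPE brain. The log2 liver difference was 1.28 ± 0.36 (SE), adjusted p = 0.0359, with 2.13 among frozen but 0.42 among FFPE libraries, and the call was lost in 10 of 16 other settings. As a copy of the K gene it may also share reads with H2-K1. H2-Ke6 had 63.8 and 50.2 CPM in frozen and FFPE brain, 78.2 and 63.5 in heart, 69.2 and 60.4 in kidney, and 128 and 79.2 in liver. Both liver libraries were highest (log2 difference 0.66 ± 0.18 (SE), adjusted p = 0.0284), a call lost in 9 of 16 settings. Summed leukocyte markers were 218 CPM in frozen liver, below the other frozen libraries at 226 to 235 CPM. In FFPE liver they were 386 CPM, above the other FFPE libraries at 324 to 353 CPM. Of the 14 genes 11 had a positive liver difference (median 0.18). Among them 1, Fcer1g, passed as higher in liver (1.33), which is 7.14% against 5.13% of all genes.

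**Figure D3:**
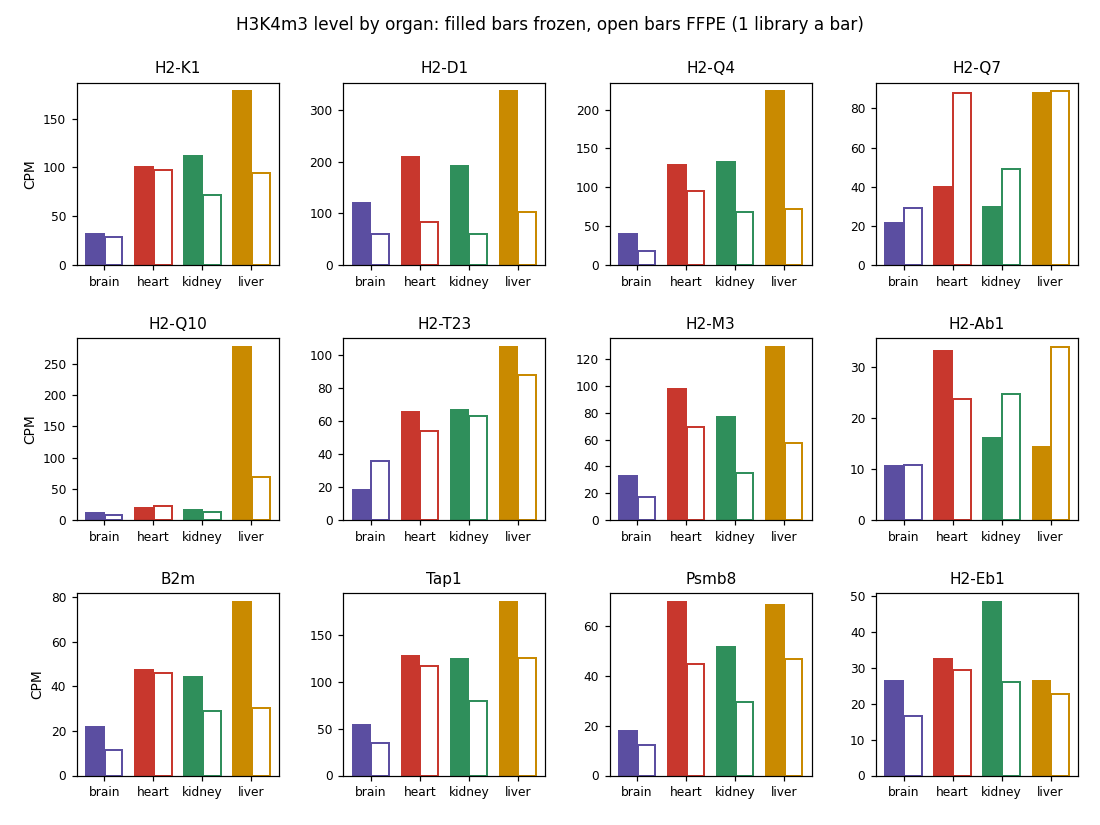
H3K4m3 level in CPM, on a linear axis from 0, of 9 H2 genes and of B2m, Tap1 and Psmb8 in each organ, with filled bars for frozen and open bars for FFPE libraries. H2-Q10 rises to 278 CPM in frozen liver and stays at or below 22.5 CPM outside the liver, whereas B2m, Tap1 and Psmb8 are lowest in brain as most of the class I genes shown are.

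Few H2 genes passed for heart or kidney. The mean that each was set against holds both the low brain and the high liver libraries. H2-Q4, for instance, had 129 CPM in frozen heart and 133 in frozen kidney, against 39.3 in frozen brain and 224 in frozen liver. The low counts are therefore no sign of likeness to each other organ. In heart 1 member passed, H2-M3 (log2 difference 0.80 ± 0.20 (SE), adjusted p = 0.0488), against 2.57% of all genes passing and 1.72% passing as higher. Its heart libraries overlapped those of kidney and liver, and the call was lost in 9 of 15 other settings. In kidney 0 members passed in limma, against 1.21% of all genes, and 2 had an unadjusted p under 0.05, H2-Q10 (-1.11) and H2-M10.1 (1.58). Endothelial markers were higher in heart for 9 of 12 genes (75%, against 1.72% of all genes). Of the 39 members 23 had a positive heart difference, with a median log2 difference of 0.15 against -0.04 over all tested genes.

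Class II genes did not pass for any organ in limma. In brain the median log2 difference of the 10 genes was -0.54, 8 were negative and 2 had an unadjusted p under 0.05, H2-Ab1 and H2-DMb1. Brain was the lowest library of each preservation type in 6 of the 10 genes, H2-Aa, H2-Ab1, H2-Eb1, H2-DMb1, H2-Oa and H2-Ob, and in 16 of the 28 class I genes, against 11.6% of all genes. In liver the median was -0.03, with 0 at an unadjusted p under 0.05. H2-Ab1 and H2-Aa encode the chains of the I-A molecule. H2-Ab1 had 10.6 and 10.7 CPM in frozen and FFPE brain, 33.0 and 23.7 in heart, 16.0 and 24.6 in kidney, and 14.3 and 34.0 in liver. Both brain libraries were lowest, at -1.11 ± 0.34 (SE) on the log2 scale and an adjusted p of 0.0527, just above the threshold. With quantile normalization H2-Ab1 passed (log2 difference -1.22, adjusted p = 0.0135). H2-Aa had 2.29 and 5.78 CPM in frozen and FFPE brain, 3.10 and 6.58 in heart, 6.54 and 11.4 in kidney, and 3.33 and 13.9 in liver. Those values rested on few reads, and brain was lowest within each preservation type, with FFPE brain above frozen heart and liver. H2-Eb1 encodes the beta chain of the I-E molecule. H2-Eb1 had 26.4 and 16.6 CPM in frozen and FFPE brain, 32.5 and 29.6 in heart, 48.5 and 26.2 in kidney, and 26.5 and 22.8 in liver. Frozen kidney was highest, and brain was lowest within each preservation type, among frozen libraries by a small margin below liver. H2-Ea had 6.86 and 7.49 CPM in frozen and FFPE brain, 1.98 and 14.5 in heart, 9.70 and 7.60 in kidney, and 3.73 and 10.4 in liver. H2-Eb2 had 12.7 and 20.6 CPM in frozen and FFPE brain, 12.1 and 33.8 in heart, 13.3 and 22.1 in kidney, and 7.65 and 24.6 in liver. Neither the pseudogene H2-Ea nor H2-Eb2 separated the organs, and the lowest library was frozen heart for H2-Ea and frozen liver for H2-Eb2.

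The nonclassical class II genes act inside the cell, where DM helps to load peptides and DO restrains DM, chiefly in B cells. H2-DMa had 10.6 and 12.6 CPM in frozen and FFPE brain, 14.4 and 11.5 in heart, 12.0 and 14.4 in kidney, and 4.90 and 11.3 in liver. H2-DMb1 had 5.20 and 9.96 CPM in frozen and FFPE brain, 13.3 and 17 in heart, 8.34 and 17.8 in kidney, and 8.04 and 19 in liver. H2-DMb2 had 3.12 and 5.97 CPM in frozen and FFPE brain, 4.23 and 10.3 in heart, 2.48 and 14.2 in kidney, and 4.51 and 9.22 in liver. In H2-DMb1 each brain library was the lowest of its preservation type, H2-DMa was lowest in liver in both types, and H2-DMb2 was lowest in kidney among frozen and in brain among FFPE libraries. H2-Oa had 1.87 and 3.70 CPM in frozen and FFPE brain, 4.80 and 7.20 in heart, 3.83 and 9.39 in kidney, and 2.16 and 10.9 in liver. H2-Ob had 8.10 and 17.4 CPM in frozen and FFPE brain, 12.1 and 28.6 in heart, 8.34 and 23.5 in kidney, and 8.44 and 20.2 in liver. In H2-Oa and H2-Ob each brain library was again the lowest of its type, and in H2-Ob the FFPE libraries were all above the frozen ones. Markers of B cells and dendritic cells did not pass either for any organ (0 of 12 in each by limma, with 1 in brain and 2 in heart at an unadjusted p under 0.05). Cd74, the invariant chain that accompanies class II, did not pass for brain (-0.61) or liver (-0.19). Ciita, the class II transactivator, was higher in liver (1.01 ± 0.23 (SE), adjusted p = 0.0115 as a log2 difference), as was Rfxank (0.70), a part of the complex that binds the X box. These 2 were the calls among 10 class II pathway genes in liver, and in brain 0 of the 10 passed in limma, with 4 at an unadjusted p under 0.05 and a median log2 difference of -0.29.

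Genes that serve class I presentation were lower in brain alongside the heavy chains. Of 15 such genes 5 passed as lower (33.3%, against 4.53% of all genes) and 0 as higher. B2m had 21.8 and 11.5 CPM in frozen and FFPE brain, 47.1 and 46.1 in heart, 44.0 and 28.7 in kidney, and 77.9 and 30.5 in liver. Both brain libraries were below all others, and B2m, the light chain shared by the heavy chains, was 2.73-fold lower in brain (log2 difference -1.45 ± 0.26 (SE), adjusted p = 0.00211). Tap1 (-1.51) and Tap2 (-1.26), which form the peptide transporter, and Psmb8 (-1.76) and Psmb9 (-1.44), the inducible proteasome subunits, were lower too. All 15 brain differences were negative, and their median was -0.43. In liver 3 of the 15 were higher, Tap1 (0.92), Psmb8 (0.83) and Psmb9 (1.03). Nlrc5, the transactivator of class I genes, passed for neither brain (-0.25) nor liver (-0.0032).

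Of 16 genes of the interferon response 7 were lower in brain (43.8%, against 4.53% of all genes) and 0 higher. They were the factors Irf1 (-1.34), Irf9 (-1.01) and Irf8 (-0.95), the inducible GTPases Irgm1 (-1.06), Igtp (-1.29) and Gbp3 (-0.96), and the receptor chain Ifnar2 (-0.74). The median log2 difference of the 16 was -0.73. Irf1 was also higher in liver (0.87). Among 11 class I-like genes outside the MHC, 2 were lower in brain (18.2%) and 4 higher in liver (36.4%, against 5.13% of all genes). The set was split in liver, with 7 positive and 4 negative differences and a median of 0.12. Fcgrt, the receptor that recycles antibodies and albumin, was lower in brain (-1.80) and higher in liver (1.16), and so was Hfe (-1.06 and 0.90), a regulator of iron uptake. Azgp1, a secreted protein with a class I fold, was 8.36-fold higher in liver (log2 difference 3.06 ± 0.46 (SE), adjusted p = 0.00105), and Cd1d1, which presents lipids, by 1.60 on the log2 scale. The brain and liver comparisons share libraries, so these values are not independent.

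Between the first and the last H2 gene lay 151 other tested genes. In brain 19 of them passed as lower (12.6%, against 4.53% of all genes) and 4 as higher (2.65%, against 5.53%), with a median log2 difference of -0.12. In liver 12 passed as higher (7.95%, against 5.13%) and 7 as lower (4.64%, against 4.84%), with a median of 0.18, so the liver counts were near those of all genes. The lower ones in brain included Tap1, Tap2, Psmb8 and Psmb9, and also Cfb (-1.77) and C2 (-1.46) of the complement system and the cytokine genes Tnf (-1.71) and Ltb (-1.18). Others rose in brain: Prrt1 (2.22) and Gabbr1 (1.39), which act at synapses. In liver the complement genes C4b (3.13), Cfb (3.00), C4a (2.80) and C2 (2.03), and Apom (2.61), an apolipoprotein, were higher too, against 3.24 for H2-Q10. C4a and C4b are near copies and may share reads.

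**Figure D4:**
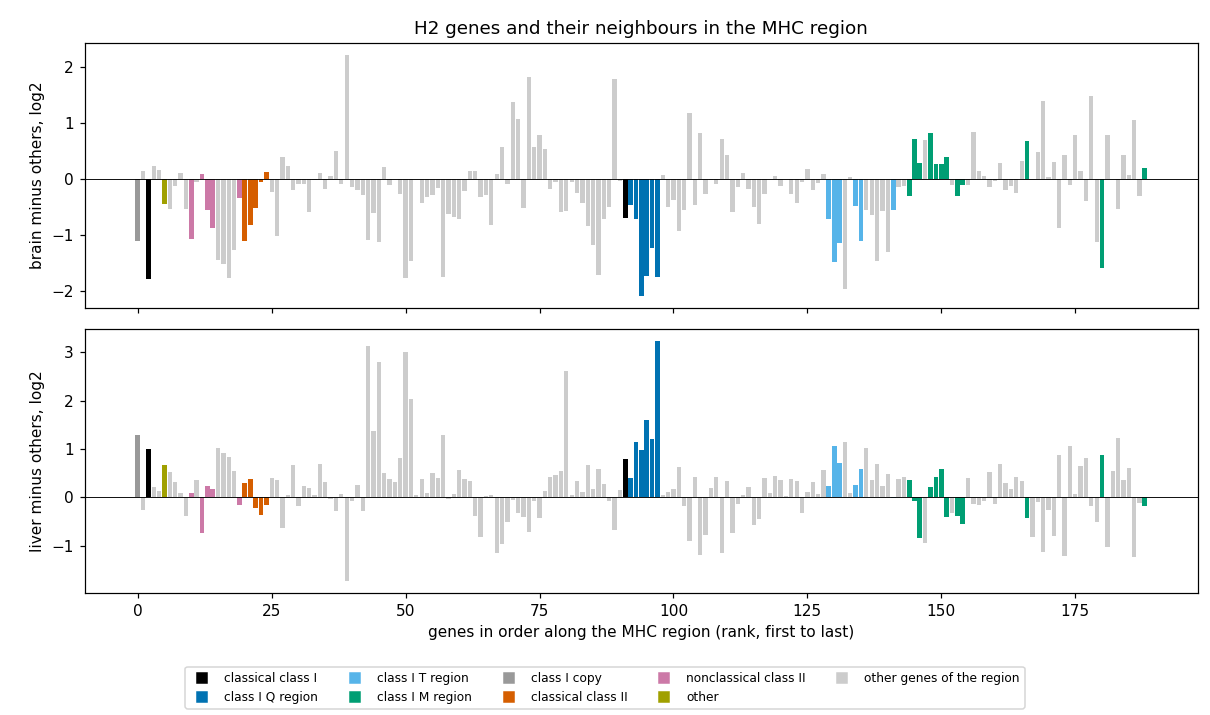
Log2 difference of brain (top) and liver (bottom) from the other organs for the 38 H2 genes with coordinates and 151 neighbours, in their order along the MHC region by rank. H2 bars are coloured by class and neighbours grey, and the low brain bars of the classical class I, Q and T genes stand among grey bars of both signs.

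FFPE and frozen tissue differed at 15 of the 39 members, 9 higher and 6 lower in FFPE, against 37.8% of all genes, 16.5% higher and 21.3% lower. Library kits of 2 families are named in the labels but not tied to samples, so preservation, chromatin preparation and kit cannot be told apart. The direction followed the level of a gene in the whole table: the median log2 difference was 0.91 for genes with a mean log2 value between 0 and 2 and -0.48 for those above 6. Members had medians of 1.11 (4 members) and -0.74 (4 members) in those same 2 groups. In between they did not follow it throughout: from 4 to 5 the median of 9 members was -0.51 against 0.19 for all genes, and from 5 to 6 that of 6 members was 0.53 against -0.31.

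Most class II genes were higher in FFPE. Of 10 genes 6 passed as higher and 0 as lower, with a median log2 difference of 1.09: H2-Aa (1.32), H2-Eb2 (1.15), H2-DMb1 (0.91), H2-DMb2 (1.44), H2-Oa (1.3) and H2-Ob (1.27). For H2-Ob the 4 FFPE libraries, at 17.4 to 28.6 CPM, were all above the 4 frozen ones, at 8.10 to 12.1 CPM (log2 difference 1.27 ± 0.28 (SE), adjusted p = 0.00334). H2-Eb2 and H2-DMb2 did not overlap either, nor did H2-M11, which did not pass, and 13.1% of all genes were separated in this direction. H2-Ab1 (0.35), H2-DMa (0.35), H2-Ea (1.03) and H2-Eb1 (-0.48) did not pass. With quantile normalization, which sets the median of all genes from 0.18 to 0.00, the class II median was 0.40 and 2 genes passed, H2-Eb2 (0.83) and H2-Ob (0.87). Leukocyte markers were higher in FFPE for 5 of 14 genes (35.7%) and markers of B cells and dendritic cells for 4 of 12 (33.3%). Those of T and natural killer cells were higher for 4 of 10 (40%). Over all genes 16.5% were higher, and 18% to 30.3% in the groups with a mean log2 value under 4. The counts were not matched for level. The part of these cell types in the class II difference was not tested.

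Class I genes went both ways, with 3 of 28 passing as higher (10.7%, against 16.5% of all genes) and 6 as lower (21.4%, against 21.3%), so the share that was lower was that of the whole table. H2-D1 fell in every organ, by 1.02 in brain, by 1.32 in heart, by 1.67 in kidney and by 1.73 in liver on the log2 scale. Its FFPE libraries, at 59.6 to 102 CPM, were all below the frozen ones, at 121 to 336 CPM (log2 difference -1.43 ± 0.15 (SE), adjusted p = 0.000114). H2-Bl had 25.6 and 15.6 CPM in frozen and FFPE brain, 43.2 and 18.5 in heart, 37.2 and 18.2 in kidney, and 45.7 and 18.8 in liver. Again the groups did not overlap (log2 difference -1.06 ± 0.22 (SE), adjusted p = 0.00218), and 17.1% of all genes were separated in that direction. H2-T24 had 26.4 and 14.9 CPM in frozen and FFPE brain, 46.0 and 29.2 in heart, 34.1 and 24.6 in kidney, and 37.5 and 28.1 in liver. H2-T24 was lower in FFPE within each organ (-0.59), as were H2-Q4 (-1.05), H2-T9 (-0.93) and H2-M3 (-0.92). H2-K1, the other classical gene, did not pass (-0.43 ± 0.17 (SE), adjusted p = 0.0595), and its difference was -0.13 in brain, -0.048 in heart, -0.64 in kidney and -0.92 in liver.

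The 3 class I genes that were higher in FFPE were H2-T22 (1.00 ± 0.22 (SE), adjusted p = 0.00405), H2-Q6 (0.75) and H2-Q7 (0.59), each with a near copy in the locus. In all 3 the difference was positive in each organ. It was greatest in heart, with 1.5, 1.83 and 1.15, and small in liver, with 0.15, 0.17 and 0.012. For H2-T22 the brain difference was nearly as large as the heart difference. With reads of H2-Q6 and H2-Q7 added together the log2 difference was 0.65, and for H2-T10 with H2-T22 it was 0.77. Among the M-region genes H2-M3 was the 1 that passed, and the other 11 were positive with 0 passing in limma and 1 at an unadjusted p under 0.05, H2-M10.1. The median of the region was 0.80, and 0.01 with quantile normalization. H2-Q10 did not pass (-0.67 ± 0.30 (SE), adjusted p = 0.0883). Its difference was -2.0 in liver, -0.48 in brain, 0.17 in heart and -0.36 in kidney, with 1 library behind each. A liver drop of this size was not particular to H2-Q10. The 5 liver marker genes had a median difference of -2.01 in liver, with 0 of them above frozen. Their medians were 1.27 in brain, 0.97 in heart and 1.16 in kidney.

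Of the 15 class I pathway genes 2 were higher in FFPE (13.3%, against 16.5% of all genes) and 7 lower (46.7%, against 21.3%). These counts were not matched for level. Over all genes, 37.1% of those with a mean log2 value of 5 to 6 and 56.1% of those above 6 were lower. Nlrc5 rose (1.21 ± 0.19 (SE), adjusted p = 0.00055), and Psmb10 (-1.19), Calr (-1.08), B2m (-0.73), Psmb8 (-0.63) and Tap1 (-0.49) were among those that fell. Of the class II pathway genes, the X-box factor Rfx5 (1.49) and Ciita (0.70) rose, and the partners of Rfx5 in its complex, Rfxap (-1.11) and Rfxank (-0.76), fell. Among the 16 interferon genes 5 were lower and 0 higher, against 21.3% and 16.5% of all genes. In the neighbours of the MHC region 32 of 151 were higher (21.2%) and 39 lower (25.8%), close to those shares.

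**Figure D5:**
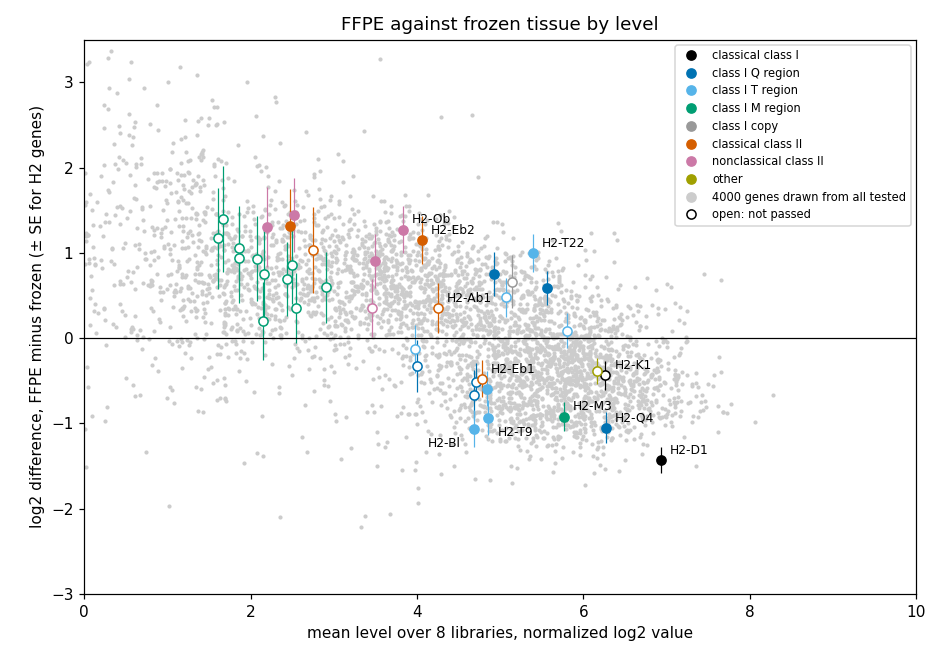
Log2 difference between FFPE and frozen libraries against the mean level over the 8 libraries, with H2 genes coloured by class (bars of 1 SE, filled where the adjusted p was under 0.05) and 4000 genes drawn from all tested genes in grey. The class II points lie mostly above 0 at mean levels under 5, and H2-D1 is the lowest H2 point at -1.43.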

How the data were processed

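The authors deposited 1 table of normalized log2 values per gene, with 8 columns, 1 for each organ and preservation type. Per the submitters' processing notes, the tools were Bowtie2, featureCounts and limma and the build mm10, listed without roles. Versions and the counted part of a gene are not given in the sources at hand. The labels list 24 samples, 12 of them H3K4m3 (4 frozen, 8 FFPE) and 12 input samples, which were not analysed here. Column names give neither antibody nor replicate, and it is not stated whether an FFPE column merges the organ's FFPE samples. Each value equals the log2 of (reads + 0.5), scaled to library size, and whole reads came out within 0.001 for 100% of values.

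Genes with a mean log2 value of at least 0 were fitted with limma 3.58.1 in R 4.3.3 on organ and preservation, with 3 residual degrees of freedom, an intensity trend and Benjamini-Hochberg adjustment over all 25680 genes. The method was tested on simulated data. The fit assumes the same preservation difference in every organ. Alternatives were other filters, quantile normalization, voom precision weights, an offset of 2 reads, no intensity trend, near copies summed, and leaving out each library. Members were all symbols beginning with H2-. Named with values in every library were members that passed in any comparison, both classical class I genes, the class II genes, and the highest and most organ-dependent member of each class. Members and lists were chosen with earlier results of these data known. Promoter windows of 32851 RefSeq starts were searched on both strands, and windows were aligned with Biopython 1.88.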

Additional observations from a re-analysis of the deposited data

Results flagged for a closer look

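Each member was examined for a library far from the other 3 of its preservation type, in 78 groups of 4 libraries, and 4 were found. Chance alone flags about 1 in 20 such groups, that is 5%, so the number found is no more than that. H2-Q10 was highest in frozen liver, where the gap to the nearest frozen library was 0.843 of the range (log2 levels of 8.12 and 4.32). H2-Ob was highest in frozen heart, with a gap of 0.901 of the range (3.60 against 3.08). H2-Eb2 was lowest in frozen liver, with a gap of 0.833 (2.94 against 3.60). H2-M1 was lowest in FFPE heart, with a gap of 0.945 (0.99 against 2.54).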

How the results depend on the processing

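No paired analysis was possible because the columns carry no replicate number to serve as a block; FFPE and frozen were compared within organs through the organ term of the model. Without the intensity trend in the prior for the spread, 1 member passed in brain, 0 in heart, 0 in liver and 0 in the test for any difference among organs, while FFPE against frozen had 12. Heart had 0 without a filter, 0 with precision weights and 2 with quantile normalization, which also gave 1 in kidney. Leaving out each library in turn gave 4 to 15 members in brain, 0 to 3 in heart, 0 to 1 in kidney, 1 to 13 in liver, 8 to 16 for FFPE against frozen and 7 to 14 for any difference among organs. The lowest counts came without frozen brain (brain, and any difference), without frozen liver (liver), and without frozen or FFPE kidney (FFPE against frozen). Without both brain libraries, chosen after seeing the data, liver had 3. Single-gene calls followed through the settings numbered 54: those at members, and those at B2m, Tap1, Psmb8, Psmb9, Irf1, Ciita and Nlrc5. Calls at other genes named in the text were not among them. Of the 54, 54 stood with a filter at a mean log2 value of 2 or an offset of 2 reads. With precision weights 49 stood, with quantile normalization 47 and without the trend 15, and 0 changed direction in any setting. Of these 54, the calls kept in every setting run were H2-Q4 and Psmb8 in brain. For FFPE against frozen they were H2-Bl, H2-D1, H2-M3, H2-Q4, H2-T9, H2-Ob, H2-Eb2 and Nlrc5. In FFPE against frozen, quantile normalization gave 7 higher and 7 lower members in place of 9 and 6, with 11 of them shared, and a median over all members of 0.06 in place of 0.59. Each organ and preservation type had 1 library, and M-region genes other than H2-M3 and several class II genes had few reads; the organ difference detectable there was not computed. H2-Ab1, which missed the threshold in brain, passed with quantile normalization (adjusted p = 0.0135) and without both liver libraries (0.0159).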
